A study of Mus musculus with 12 samples.

Results

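The Xcl1+ Tnfrsf9+ islet cells are CD8 T cells from the pancreatic islets of NOD mice that carried RNA of the chemokine gene Xcl1 and of the costimulatory receptor gene Tnfrsf9 in the same cell. They were chosen by measured values. In the 4 islet scRNA-seq libraries, cells with mitochondrial UMIs under 5% and with 200 to 3500 detected genes were kept, and a kept cell was a member where its raw counts gave at least 1 Xcl1 UMI, at least 1 Tnfrsf9 UMI, no Mki67 UMI and fewer than 3 Nr4a1 UMIs. A UMI is a molecular barcode that stands for 1 captured RNA molecule. By this rule 1857 of 18163 kept islet cells were members, out of 20441 islet cells in the files. The limit on Nr4a1, an early response gene of the T-cell receptor (TCR), left out 345 Xcl1+ Tnfrsf9+ cells, here called Nr4a1-high cells, and the limit on Mki67, a gene of dividing cells, left out 276.

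All cells came from NOD/ShiLtJ females of 10 to 15 wk that were not yet diabetic, with no further allele or treatment. Islets were pooled from 10 mice in each of 2 rounds, hand-picked, dissociated and kept warm in medium before single CD45.1+ Lin-CD8+ cells were sorted. In each round, cells that bound a Kd tetramer loaded with NRP-V7, a mimotope of the islet antigen peptide IGRP206-214, were sequenced as the tetramer-positive library, and cells that did not bind it as the tetramer-negative library. A library is thus a pool of mice, a tetramer-negative library mixes many TCR specificities, and n is 2 libraries for each sort. Values per library are given below in the order tetramer-negative Round 1 and Round 2, then tetramer-positive Round 1 and Round 2.

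XCL1 is a chemokine released by activated CD8 T cells and natural killer cells, and its receptor XCR1 is found on the conventional dendritic cells that cross-present antigen. Tnfrsf9 encodes 4-1BB (CD137), a receptor of the TNF receptor family that appears on T cells after TCR stimulation and passes costimulatory signals through TRAF adaptors to NF-kB. CCL1 is a chemokine that binds CCR8, and spermidine synthase, encoded by Srm, is a polyamine enzyme and a known target of the transcription factor MYC. In autoimmune diabetes CD8 T cells enter the islets, where they meet antigens of β cells such as IGRP.

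The rule fixes the levels of Xcl1 and Tnfrsf9, so these are given as a description. On the GRCm38 assembly Xcl1 lies on chr1:164931644-164935527 on the minus strand and Tnfrsf9 on chr4:150914562-150946102 on the plus strand. Xcl1 in the summed counts of members stood at 1261, 1165, 1676 and 1549 counts per 1000000 UMIs (CPM), against 182, 181, 351 and 323 CPM in the other kept cells of the same library. Tnfrsf9 stood at 505, 569, 560 and 626 CPM against 93.6, 99.2, 213 and 258 CPM. For both genes the other cells of the tetramer-positive libraries lay above those of the tetramer-negative libraries. Srm, a gene of the label that the rule did not use, stood at 53.5, 54.6, 78.7 and 47.0 CPM in members and at 24.1, 27.7, 27.2 and 19.97 CPM in other cells. Ccl1, the other gene of the label, was rare, with a UMI in 10 of 566, 14 of 745, 3 of 201 and 6 of 345 members, so it does not mark most of these cells. Nr4a1 was at 85.1, 101, 73.1 and 116 CPM in members and at 161, 223, 147 and 264 CPM in other cells, which the limit of the rule sets.

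Cells just inside and just outside each limit of the rule were set side by side. The 264 members with 2 Nr4a1 UMIs held Xcl1 at 1469 CPM, Srm at 64.1 CPM and Ccl1 at 16.8 CPM, and the 132 cells just outside, with 3 Nr4a1 UMIs, held 2016, 65.1 and 61.9 CPM. The 498 members with a single Xcl1 UMI had 452 CPM of Tnfrsf9 and 463 CPM of Pdcd1, and the 2504 Tnfrsf9+ cells without an Xcl1 UMI that met the limits on Nr4a1 and Mki67 (here called Tnfrsf9-only cells) had 408 and 532 CPM. Srm stood at 33.0 CPM in the former and 28.1 CPM in the latter, both below the 55.7 CPM of all members. The 698 members with a single Tnfrsf9 UMI had 812 CPM of Xcl1, 27.6 CPM of Srm and 8.75 CPM of Ccl1, against 673, 23.2 and 0.865 CPM in the 1804 Xcl1+ cells without Tnfrsf9. The 114 cells left out for 1 Mki67 UMI had 952 CPM of Xcl1, 46.4 CPM of Srm and 1.03 CPM of Ccl1, against 1317, 55.7 and 14.8 CPM in all members, and their median of 8492 UMIs lay above the 5360 UMIs of members. Summed Ccl1 thus differed across the Nr4a1, Tnfrsf9 and Mki67 limits, but it rests on few cells, with up to 28 UMIs in 1 member. Members with a single UMI of Xcl1 or of Tnfrsf9 had less Srm than members as a whole.

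The members carried the genes of CD8 T cells, and the markers of other cell types ranged from absent to plainly present. A UMI of Cd8a or Cd8b1 was found in 97.0%, 95.6%, 97.5% and 96.5% of members, and a UMI of the CD3 complex or Trac in 99.5% to 100%. No member had a UMI of Cd4, Ncr1 or Cd79a, which mark CD4 T cells, natural killer cells and B cells. Ncr1 and Cd79a were also at 0 in other cells of tetramer-negative Round 1. Lyz2 of myeloid cells was seen in 3, 1, 0 and 1 members. The 6 genes of the B-cell list summed to between 49.9 and 116 CPM in members, against 63.0 to 85.1 CPM in other cells. In members 3 of the 6 were at 0. The 8 genes of the list for CD4, regulatory, γδ and NKT cells summed to between 2.14 and 8.83 CPM in members, with 1 to 7 at 0. In other cells that list summed to between 3.45 and 9.01 CPM. The 12 genes of the myeloid list summed to between 188 and 229 CPM in members and to between 205 and 273 CPM in other cells, with 3 to 6 of the 12 at 0 in members. The 14 genes of the exocrine list, made by acinar cells of the pancreas, summed to between 61.0 and 448 CPM in members and 64.3 and 495 CPM in other cells, with 1 or 2 of the 14 at 0 in members. The 12 genes of the natural killer and innate lymphoid list summed to between 88.3 and 158 CPM in members, with 6 to 9 at 0, and the 9 endocrine genes to between 5.62 and 31.5 CPM, with 2 to 5 at 0. Members were deeper than the other cells of their library, with a median of 5526, 5473, 5372 and 4807 UMIs against 3709, 3791, 3615 and 3967. A second productive β chain was found in 2.83%, 5.77%, 0.995% and 1.16% of members and in 1.59%, 3.41%, 2.19% and 0.798% of other cells. Between 5 and 77 cell barcodes were shared by any 2 of the 6 libraries.

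Because a single UMI decides membership, the background of each gene was read in naive-like cells, which should lack both and were taken here as kept cells with UMIs of markers of naive T cells, Ccr7 among them, and no Pdcd1 UMI. Among the 988 and 1779 such cells of the tetramer-negative libraries, Xcl1 had a UMI in 7.59% and 7.98% and Tnfrsf9 in 9.11% and 11.02%, at median depths of 3778 and 3900 UMIs. These shares lie below the 17.0%, 15.8%, 25.3% and 27.9% of all other cells with an Xcl1 UMI. Members were not taken out of the naive-like set, and 2.83% and 5.10% of tetramer-negative members fell in it. Since members carry both genes by the rule, they raise this background. With every cell cut down at random to 2000 UMIs (thinned), Xcl1 was found in 36.7%, 33.9%, 34.2% and 42.2% of Tnfrsf9+ cells and in 14.6%, 13.3%, 28.7% and 29.4% of cells without Tnfrsf9. Xcl1 was thus more frequent in cells with Tnfrsf9 than in cells without it in each library, by a smaller margin in the tetramer-positive libraries.

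Xcl1+ Tnfrsf9+ cells made up a larger part of the tetramer-positive than of the tetramer-negative islet cells. Members were 566 of 6429 cells (8.80%; exact 95% interval 8.12 to 9.52) and 745 of 8932 cells (8.34%; 7.78 to 8.93) of the tetramer-negative libraries. They were 201 of 1204 cells (16.7%; 14.6 to 18.9) and 345 of 1598 cells (21.6%; 19.6 to 23.7) of the tetramer-positive libraries. Both tetramer-positive shares lay above both tetramer-negative shares, and the intervals, which cover counting error only, did not overlap. In the tetramer-positive cells of the spleen, which were sorted as CD44+ and kept with 200 to 2000 genes, the same counts gave 12 of 3524 cells (0.341%) and 12 of 2430 cells (0.494%). The islet means were 19.1% ± 3.46 (SD, n = 2) and 8.57% ± 0.327 (SD, n = 2), 10.6 percentage points apart, and 2 libraries against 2 cannot give a two-sided exact permutation p below 0.333, the value found.

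The size of this difference depended on which cells were counted. At 2000 UMIs a cell, with 414, 409, 168 and 116 shallower cells left out, the shares were 5.37%, 5.23%, 12.1% and 14.6%. Among cells with a UMI of Pdcd1, which encodes the inhibitory receptor PD-1, they were 15.0%, 15.0%, 18.01% and 21.8%, a difference of 4.92 percentage points. Pdcd1 had a UMI in 63.6%, 59.7%, 75.6% and 73.9% of members and in 34.8%, 30.8%, 69.0% and 72.9% of other cells, while 16.6%, 21.3%, 0.199% and 0.0798% of other cells were naive-like. In other cells of the tetramer-negative libraries the Pdcd1 share thus lay below, and the naive-like share above, both tetramer-positive values.

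**Figure D1:**
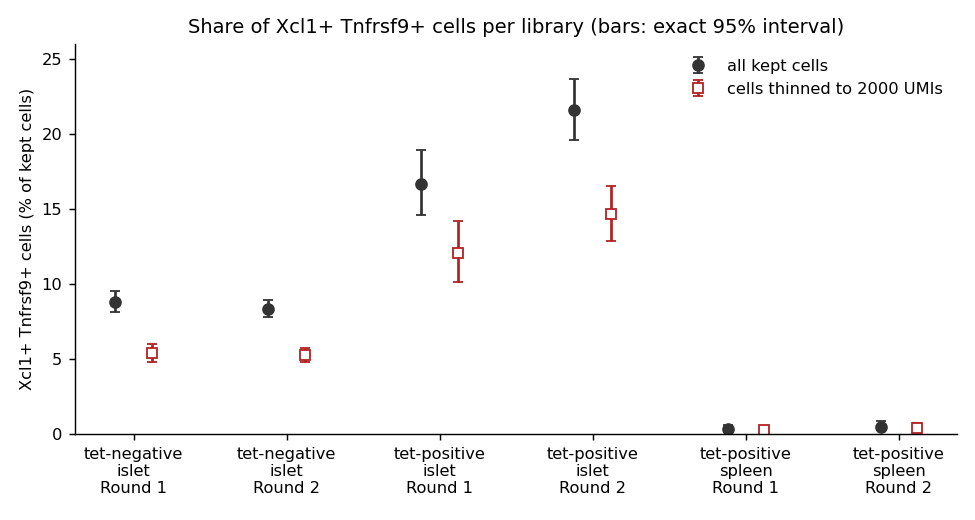
Xcl1+ Tnfrsf9+ cells as a percentage of kept cells in each of the 6 libraries, with filled circles for all kept cells, open squares for cells thinned to 2000 UMIs and bars for exact 95% intervals. The tetramer-positive islet libraries sit at 16.7% and 21.6%, above the tetramer-negative ones at 8.80% and 8.34%, and the spleen libraries at 0.341% and 0.494%.

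Against the other cells of the same library, the Xcl1+ Tnfrsf9+ cells were high in genes of TNF-family costimulation and of ribosome biogenesis, and low in granzymes, interferon-response genes and genes of resting T cells. The test was edgeR's quasi-likelihood test of counts summed over members and over other cells in each library, with the library as a block. Of 10401 genes tested, 787 (7.57%) were higher and 924 (8.88%) lower in members at a Benjamini-Hochberg adjusted p under 0.05, without the genes of the rule and the label. These counts fell to 273 and 310 without the tetramer-negative library of Round 1, and to 433 and 518 without that of Round 2. DESeq2 called 523 and 444, and without the library block edgeR called 2 and 1.

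The costimulatory genes included both sides of the OX40 pair. Of 18 genes of TNF receptors and costimulation tested, 9 were higher and 1 lower, with a median log2 change of 0.22 against -0.02 over all genes tested. Tnfsf4 (chr1:161395409-161418410, plus strand), which encodes OX40 ligand, stood at 102, 94.4, 132 and 157 CPM in members and at 22.7, 20.001, 66.4 and 59.6 CPM in other cells. No member value reached down to the level of other cells, and the log2 change was 1.76 ± 0.16 (SE; adjusted p = 6.2e-05). Tnfrsf4 (chr4:156013843-156016612, plus strand), which encodes the OX40 receptor itself, stood at 273, 300, 204 and 234 CPM against 117, 128, 79.4 and 100 CPM, a change of 1.26 ± 0.07 (adjusted p = 1.1e-06). OX40 ligand is best known from antigen-presenting cells, and OX40 from activated T cells. After thinning, a Tnfsf4 UMI was found in 14.1%, 12.4%, 16.9% and 22.8% of members and in 3.3%, 2.7%, 11.5% and 10.1% of other cells. The adaptors of these receptors, Traf1 and Traf4, were higher by 0.42 ± 0.08 and 0.59 ± 0.07 on the log2 scale, and Rel, the NF-kB subunit c-Rel, stood at 218, 181, 157 and 170 CPM against 113, 115, 91.0 and 104 CPM (0.78 ± 0.07). Of 20 NF-kB subunits and feedback genes, 7 were higher and 5 lower. Among the lower genes were Icam1 and the inhibitors Nfkbia and Nfkbid, the latter at 18.5, 19.2, 13.6 and 15.5 CPM against 36.1, 29.1, 22.9 and 30.4 CPM (-0.81 ± 0.11). Other cells include cells over the Nr4a1 limit, so lower levels of genes induced together with Nr4a1 are tied to the rule. Against Tnfrsf9-only cells, which meet that limit, 8 of these 20 genes were higher and 1 lower, and the lowest log2 change was -0.36.

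Secreted and surface molecules with no part in the rule set the members apart as well. Penk, which encodes the precursor of the enkephalin peptides, stood at 216, 179, 361 and 236 CPM in members and at 52.1, 52.1, 81.8 and 137 CPM in other cells (log2 change 1.70 ± 0.17, adjusted p = 0.00011). Nrn1, which encodes neuritin, stood at 105, 66.2, 112 and 119 CPM against 33.9, 26.3, 44.2 and 39.9 CPM (1.48 ± 0.08). Crtam, an adhesion receptor of activated CD8 T and natural killer cells, stood at 75.5, 69.3, 64.2 and 93.5 CPM against 28.0, 28.9, 38.2 and 45.5 CPM (1.18 ± 0.09). For these 3 genes the groups did not overlap. Among the chemokines, Cxcl10 was higher at 64.6, 94.1, 53.0 and 103 CPM against 35.9, 51.8, 31.5 and 21.1 CPM (1.13 ± 0.19), and Ccl5 was lower at 6560, 6080, 7873 and 10480 CPM against 9636, 7998, 20577 and 19079 CPM (-0.79 ± 0.13). Ccr8, the receptor of CCL1, was higher by 1.73 ± 0.18 on the log2 scale, at 49.0, 68.0, 33.7 and 47.6 CPM against 11.7, 15.3, 14.0 and 27.3 CPM. The chemokine receptor gene Ccr2 was lower, with a log2 change of -1.04 ± 0.11.

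The list of inhibitory receptors and related molecules did not move one way. Of 12 genes tested, 4 were higher (Cd160, Cd200, Cd200r1 and Tigit) and 3 lower (Entpd1, Lgals3 and Havcr2). After thinning, a Havcr2 UMI was found in 3.6%, 4.1%, 4.1% and 6.9% of members and in 2.6%, 3.4%, 8.9% and 15.2% of other cells. It was thus less frequent in members of the tetramer-positive libraries only. For Tigit these shares were 63.7%, 64.8%, 70.3% and 79.0% against 41.3%, 40.1%, 75.5% and 77.1%. Cd200 stood at 231, 178, 158 and 231 CPM in members against 80.3, 59.4, 98.8 and 107 CPM in other cells (1.28 ± 0.12), and Cd160 at 64.4, 67.8, 57.0 and 77.0 CPM against 21.4, 19.4, 37.5 and 46.2 CPM (1.30 ± 0.16). Entpd1, which encodes the ectoenzyme CD39, stood at 18.5, 24.2, 31.3 and 43.3 CPM against 30.9, 35.1, 85.0 and 123 CPM (-1.01 ± 0.14). Of 15 transcription factors of effector and exhausted cells, 9 were higher and 1, Runx3, was lower. Zeb2 changed by 1.05 ± 0.14, Stat4 by 0.49 ± 0.07 and Tox by 0.44 ± 0.13. The anergy list, genes of T cells made unresponsive, had 5 higher and 1 lower of 13, with Nrp1 at 0.72 ± 0.13, Dgkz at 0.61 ± 0.09, Nt5e at 0.57 ± 0.13 and Izumo1r (folate receptor 4) at 0.49 ± 0.08. Helios, encoded by Ikzf2, stood at 224, 132, 250 and 253 CPM against 92.8, 63.6, 204 and 218 CPM (0.74 ± 0.14), so its values in tetramer-positive other cells overlapped those of members.

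Killing genes were low. Of 14 granzymes and killing genes tested, 6 were lower and 1, Ctsw, higher, with a median log2 change of -0.30. Gzmb (chr14:56258838-56262260, minus strand), which encodes granzyme B, stood at 42.4, 59.5, 54.6 and 79.6 CPM in members and at 135, 186, 221 and 267 CPM in other cells, a log2 change of -1.74 ± 0.08 (adjusted p = 2.9e-07). Its groups did not overlap, and after thinning 3.0%, 4.1%, 3.1% and 4.5% of members had a Gzmb UMI against 8.5%, 10.4%, 18.7% and 18.5% of other cells. Fasl stood at 31.6, 48.7, 29.7 and 49.2 CPM against 62.7, 73.4, 86.7 and 139 CPM (-1.06 ± 0.13), and Gzmk changed by -0.66 ± 0.10. Gzma was unlike these, since it was lower in the tetramer-negative libraries at 27.6 and 103 CPM against 183 and 231 CPM but stood at 64.2 and 18.2 CPM against 39.9 and 39.6 CPM in the tetramer-positive ones.

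Interferon-response genes were lower where they passed. Of 23 tested, 14 were lower and 0 higher (median -0.88), a share above the 8.88% of all genes that were lower. Irf1 stood at 81.4, 130, 65.8 and 94.1 CPM in members against 297, 372, 124 and 173 CPM in other cells (-1.36 ± 0.15). The guanylate-binding protein genes Gbp7, Gbp4 and Gbp2 changed by -1.11 ± 0.10, -1.09 ± 0.14 and -1.12 ± 0.16, and Ifngr1, which encodes a chain of the interferon-γ receptor, by -0.80 ± 0.08. Myeloid markers moved with this list, since 3 of the 4 myeloid-list genes tested were lower too (median -1.44). H2-Aa, an MHC class II gene, stood at 4.27, 2.01, 5.62 and 1.60 CPM in members against 24.2, 16.5, 2.59 and 12.9 CPM in other cells (-2.43 ± 0.36), lower in 3 of 4 libraries, and H2-Ab1 and Cd74 changed by -1.90 ± 0.25 and -0.98 ± 0.17. Of 13 exocrine genes tested 0 passed, and both endocrine genes tested were higher. The part of cells or free RNA of these types in the gene differences was not tested. Of 21 genes of quiescence and stemness tested, 10 were lower and 1, Myb, higher (median -0.44). The log2 change was -2.16 for S1pr1, -1.32 for Klf2, -1.42 for Il7r and -1.58 for Lef1. For these genes most of the difference lay in the tetramer-negative libraries, where S1pr1 stood at 31.3 and 40.5 CPM against 165 and 193 CPM, while the tetramer-positive libraries had 10.4 and 7.48 CPM against 17.3 and 17.8 CPM. The share of naive-like cells given above moved with this list, and among Pdcd1+ cells alone Lef1 did not pass (adjusted p = 0.074).

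**Figure D2:**
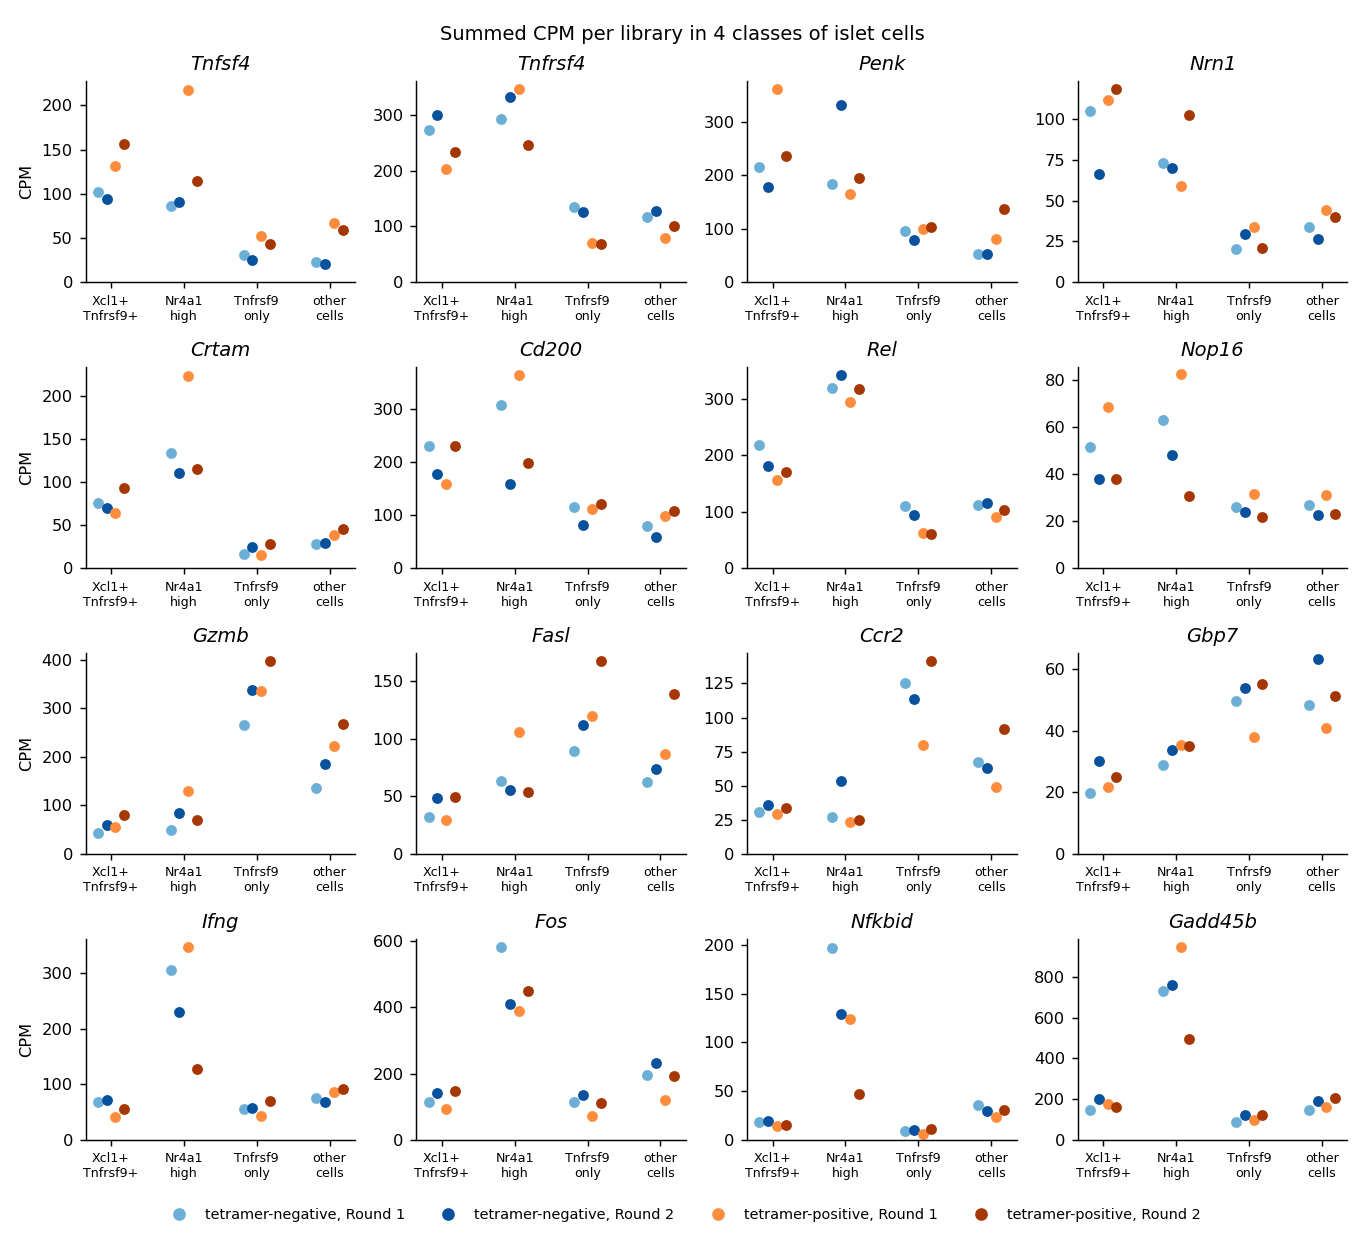
Summed CPM (y axis, linear, from 0) of 16 genes in Xcl1+ Tnfrsf9+, Nr4a1-high, Tnfrsf9-only and other cells, with 1 point for each of the 4 islet libraries and colour for the library. Tnfsf4 in members lies between 94.4 and 157 CPM, above the highest value of 66.4 CPM in other cells, and Gzmb in members lies between 42.4 and 79.6 CPM, below the lowest value of 135 CPM in other cells.

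The cell-cycle lists are tied to the Mki67 limit of the rule, and nothing was read from them. Of 25 S-phase and 24 G2/M-phase genes, 16 and 21 were lower. Histone and cell-cycle genes such as Hist1h1b, Hist1h2ap, Birc5, Pclaf, Ube2c and Rrm2 were therefore among the largest negative changes, from -2.28 for Hist1h1b to -1.50 for Ube2c. Immediate early genes are tied in the same way to the Nr4a1 limit. Of 22, 7 were lower, among them Egr1 at -0.69 ± 0.09 and Fos at -0.58 ± 0.09, and 3 were higher, Nr4a3 (0.60 ± 0.08), Nr4a2 and Fosb.

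Many genes of ribosome biogenesis were higher. Of 53 genes of the Myc and ribosome biogenesis list tested, 35 were higher and 0 lower, with a median log2 change of 0.38, against the 7.57% of all genes that were higher. Srm was left out of this count. Nop16, a nucleolar protein gene, stood at 51.5, 38.0, 68.2 and 37.9 CPM in members against 26.8, 22.5, 31.1 and 22.8 CPM in other cells (0.88 ± 0.10, adjusted p = 0.00017), with no overlap. Cad, which encodes the enzyme that starts pyrimidine synthesis, stood at 17.7, 34.7, 24.1 and 20.8 CPM against 8.77, 17.1, 14.0 and 14.9 CPM (0.88 ± 0.12). Mrto4 changed by 0.71 ± 0.09 and Nop2, an rRNA methyltransferase gene, by 0.69 ± 0.13. Of 22 translation initiation and tRNA synthetase genes 9 were higher and 0 lower, with Eif3b at 0.54 ± 0.07 and Eef1e1 at 0.47 ± 0.08. Of 19 glycolysis genes 6 were higher and 0 lower, with Tpi1 at 0.69 ± 0.10, Mif at 0.68 ± 0.07 and Pgam1 at 0.54 ± 0.07, and Shmt2 and Mthfd1 of one-carbon metabolism changed by 0.64 ± 0.08 and 0.58 ± 0.12.

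MYC binds the E-box CACGTG, which reads the same on both strands. The letters were searched in RefSeq promoters from 250 bases before to 50 after the gene start on GRCm38.p6. Of 27025 promoters 7.24% held the E-box, as did 10.9% of the promoters of tested genes, 14.3% of those of genes higher in members, 8.92% of those of genes lower in members, and 10 of 47 (21.3%) of the ribosome biogenesis list. A match is a description of the letters and not a binding site. Promoter stretches of 2 genes that were higher in members, Nop2 and Phb, are shown because the E-box stands in them, with the E-box in capitals, the first at chr6:125131796-125131855 and the second at chr11:95666707-95666757, both on the plus strand.
Nop2: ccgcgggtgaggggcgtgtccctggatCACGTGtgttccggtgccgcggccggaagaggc
Phb: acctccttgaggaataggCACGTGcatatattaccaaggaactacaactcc

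Against Tnfrsf9+ cells without an Xcl1 UMI, which share one gene of the rule, the members were again high in genes of ribosome biogenesis and costimulation and low in killing and interferon-response genes. Of 9601 genes tested in the same way, 830 (8.64%) were higher and 829 (8.63%) lower. The counts were 432 and 389 without the tetramer-negative library of Round 1 and 525 and 480 without that of Round 2, and DESeq2 called 294 and 261. These comparisons use the same member cells as those above, so they are not independent of them.

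Of 53 ribosome biogenesis genes, 41 were higher and 0 lower (median 0.45 against -0.01 over all genes tested), among them Myc itself, Gnl3 at 76.6, 64.8, 70.6 and 58.8 CPM against 49.4, 43.9, 32.4 and 37.6 CPM (0.67 ± 0.09), and Nop16 (0.87 ± 0.11). Of 18 costimulatory genes, 8 were higher and 0 lower (median 0.54). Tnfsf4 in Tnfrsf9-only cells was at 30.2, 25.6, 52.2 and 42.9 CPM, a log2 change of 1.76 ± 0.09 (adjusted p = 1.7e-12), and Tnfrsf4 at 135, 126, 69.6 and 68.8 CPM, a change of 1.32 ± 0.09. Penk (1.32 ± 0.09), Nrn1 (1.83 ± 0.14), Crtam (1.82 ± 0.12), Cd160 (1.82 ± 0.12) and Cxcl10 (1.97 ± 0.16) were higher, and in none of these did the groups overlap. Ifng, the gene of interferon-γ, stood at 67.5, 70.9, 40.9 and 54.5 CPM in members and at 55.2, 57.1, 41.9 and 70.0 CPM in Tnfrsf9-only cells, which did not pass (adjusted p = 0.33).

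Killing genes were lower in the members than in Tnfrsf9-only cells. Of 14 granzyme and killing genes, 10 were lower and 1 higher (median -0.43). Gzmb in Tnfrsf9-only cells stood at 266, 337, 335 and 397 CPM, a log2 change of -2.50 ± 0.07 (adjusted p = 1.8e-17). Prf1, which encodes perforin, stood at 34.2, 37.1, 26.5 and 41.1 CPM in members against 55.5, 64.3, 85.4 and 73.5 CPM (-0.88 ± 0.11). Fasl changed by -1.49 ± 0.10, Ccl5 by -1.27 ± 0.07, Entpd1 by -1.78 ± 0.09 and Havcr2, which encodes TIM-3, by -1.35 ± 0.10. The receptors Ccr2 and Cxcr6, which guide effector cells in inflamed tissue, changed by -1.83 ± 0.09 and -1.03 ± 0.09, and Prdm1, which encodes BLIMP-1, by -1.07 ± 0.14. The list of effector and exhaustion factors, which does not hold Prdm1, did not move one way, with 5 of 15 higher and 2 lower (median 0.16). Zeb2 changed by 0.66 ± 0.08 and Tbx21, which encodes T-bet, by 0.37 ± 0.09, while Runx3 changed by -0.38 ± 0.07. Of 22 interferon-response genes, 14 were lower and 1, the feedback inhibitor Socs1, higher.

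Genes of other cell types moved in this comparison. Of 12 exocrine genes tested 8 were higher, with Ctrb1 at 32.5, 87.9, 6.42 and 46.5 CPM in members against 16.4, 51.6, 7.11 and 28.2 CPM (0.78 ± 0.11), and the list summed to between 82.2 and 304 CPM in Tnfrsf9-only cells. The MHC class II genes H2-Aa, H2-Ab1 and Cd74, which were 3 of the 4 myeloid-list genes tested, were lower, with H2-Aa at 4.27, 2.01, 5.62 and 1.60 CPM against 60.2, 31.9, 2.37 and 2.35 CPM (-3.35 ± 0.31), and the myeloid list summed to between 214 and 469 CPM in Tnfrsf9-only cells. H2-Aa was lower in 3 of 4 libraries and higher in tetramer-positive Round 1. The part of free RNA or attached cells in the gene differences was not tested.

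**Figure D3:**
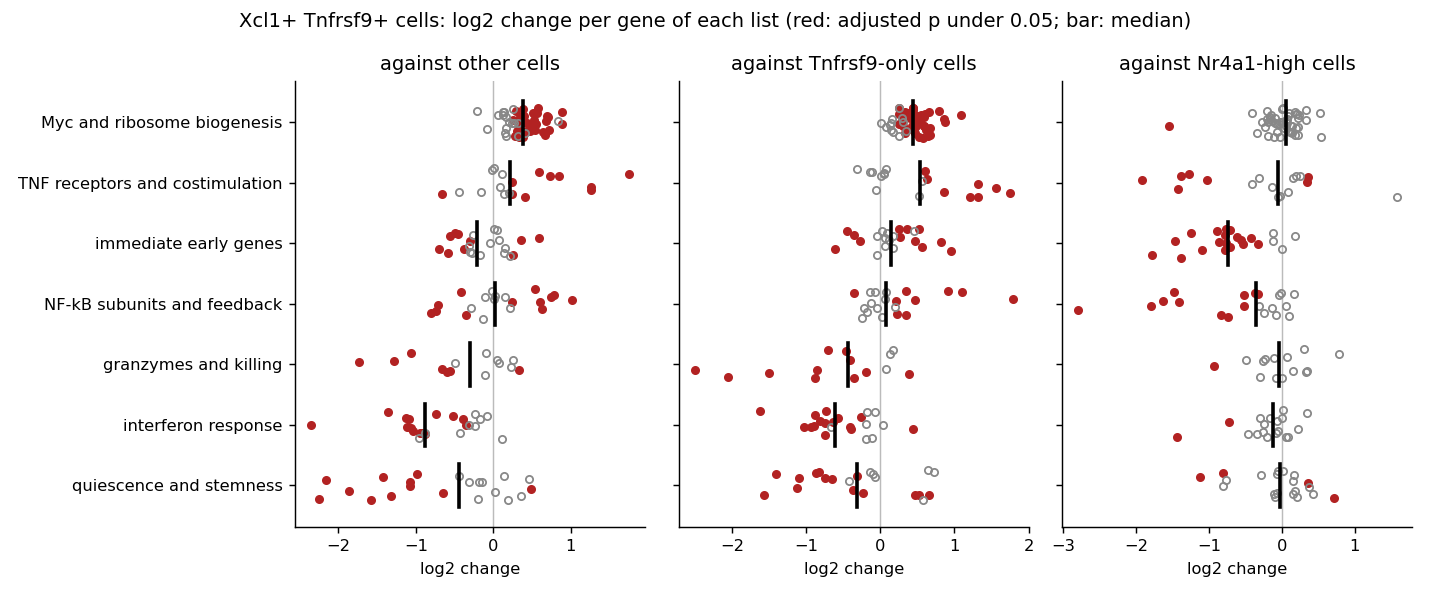
Log2 change of each tested gene of 7 lists in Xcl1+ Tnfrsf9+ cells against other cells, Tnfrsf9-only cells and Nr4a1-high cells, with filled red points for an adjusted p under 0.05, open points for the rest and a black bar for the median. The ribosome biogenesis list lies to the right of 0 in the first and second panels (medians 0.38 and 0.45) and at 0.05 in the third, where immediate early genes lie at -0.74.

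Against the Nr4a1-high cells, which met the rule in Xcl1 and Tnfrsf9 but not in Nr4a1, the members were low in immediate early, NF-kB and cytokine genes. The groups were split on Nr4a1, so a lower level of genes induced together with it is tied to the rule. Nr4a1-high cells numbered 79, 173, 23 and 70. Of 8510 genes tested, 129 (1.52%) were higher and 205 (2.41%) lower. Without the tetramer-positive library of Round 2 the counts were 72 and 131, and with members matched by UMIs to the Nr4a1-high cells 33 and 133.

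Immediate early and feedback genes were lower together. Of 22 immediate early genes 18 were lower and 0 higher (median -0.74 against 0.01 over all genes tested), of 20 NF-kB genes 11 were lower and 0 higher, and of 20 MAPK and TCR feedback genes 9 were lower and 0 higher. Fos stood at 114, 142, 92.3 and 146 CPM in members against 583, 411, 388 and 449 CPM (-1.79 ± 0.10). Nfkbia, an NF-kB inhibitor that NF-kB induces, stood at 317, 355, 241 and 286 CPM against 1255, 1072, 1460 and 829 CPM (-1.80 ± 0.10), and Nfkbid at -2.79 ± 0.17 changed by more. Gadd45b, a stress-response gene, stood at 146, 199, 173 and 163 CPM against 734, 761, 948 and 497 CPM (-1.98 ± 0.10). None of these groups overlapped.

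Effector cytokines were lower than in Nr4a1-high cells. Of 8 cytokine genes tested 4 were lower and 0 higher (median -0.43). Ifng stood at 67.5, 70.9, 40.9 and 54.5 CPM in members against 306, 230, 347 and 127 CPM (-1.87 ± 0.13, adjusted p = 3.4e-17). Tnf changed by -1.36 ± 0.19, Lta by -1.68 ± 0.23 and the chemokine gene Ccl4 by -1.81 ± 0.15, and Ccl3 stood at 33.3, 20.3, 34.5 and 34.7 CPM against 180, 115, 135 and 49.3 CPM. In all 4 libraries these 5 genes were lower in members. Of 17 costimulatory genes 2 were higher, Cd27 and Icos, and 5 lower (median -0.06), so the list that was high against other cells was not high against these. Tnfsf4 differed by 0.15 ± 0.12 (adjusted p = 0.66) and Tnfrsf4 by -0.13 ± 0.10 (adjusted p = 0.61). Among the lower genes, Tnfsf9, which encodes the 4-1BB ligand, stood at 6.26, 7.60, 6.42 and 9.62 CPM against 27.2, 30.4, 29.4 and 32.8 CPM (-1.92 ± 0.27), and Tnfsf11 changed by -1.43 ± 0.19. Irf4 and Batf, factors induced by TCR signals, changed by -1.32 ± 0.21 and -0.50 ± 0.10.

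Of 53 ribosome biogenesis genes 0 were higher and 1 lower, Myc, at 24.8, 34.4, 16.1 and 19.2 CPM in members against 127, 62.4, 64.7 and 69.8 CPM (-1.55 ± 0.18), and the median of the list was 0.05. Among genes higher in members, Tigit stood at 591, 612, 666 and 916 CPM against 418, 384, 500 and 687 CPM (0.59 ± 0.09), Stat3 changed by 0.52 ± 0.09, and Ccl5 by 0.61 ± 0.08. Several of the higher genes, among them Ccl5, Eomes, Cblb, Faim, Mbnl2 and St8sia4, did not pass when members were matched by UMIs. Of 11 exocrine genes tested 7 were higher in members, and the list summed to between 88.3 and 160 CPM in Nr4a1-high cells. Of 4 myeloid-list genes 3 were lower, and the list summed to between 194 and 792 CPM in Nr4a1-high cells.

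Within the Xcl1+ Tnfrsf9+ cells, few genes passed between the tetramer-positive and tetramer-negative sorts, TCR segments among them. The main fit did not use the pairing of the sorts by round, and genes that did not pass cannot be read as alike. With 2 libraries a sort, 0 of 9207 genes tested (0%) were higher and 2 (0.0217%) lower in tetramer-positive members by edgeR, with 78 and 195 genes at an unadjusted p under 0.05. DESeq2 called 2 and 16. The 2 lower genes, chosen here after their values were seen, were the TCR β segments Trbv29, at 90.0 and 125 CPM against 0 and 0.534 CPM, and Trbv14, at 81.2 and 83.6 CPM against 0 and 0 CPM. With the round as a block the counts were 4 and 35, many of them TCR segments.

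Among those that passed under the round block were 4 named genes with other roles. Areg, which encodes the growth factor amphiregulin, stood at 10.8 and 8.72 CPM in tetramer-negative members and at 36.1 and 57.2 CPM in tetramer-positive members (log2 difference 2.31 ± 0.30, adjusted p = 0.18 without and 0.0086 with the block). Itgae, which encodes the CD103 integrin of tissue-resident T cells, stood at 49.0 and 71.1 CPM against 6.42 and 15.0 CPM (-2.38 ± 0.35, adjusted p = 0.3 and 0.0045). S1pr1, which lets T cells leave tissue, stood at 31.3 and 40.5 against 10.4 and 7.48 CPM, and Il7r at 54.4 and 69.1 against 8.83 and 22.4 CPM, with adjusted p = 0.028 and 0.022 under the block and no call without it. For all 4 genes the sorts did not overlap, which is weak with 2 libraries a sort. Several genes that were higher in members than in other cells gave values above 0 between the sorts without passing, with Tnfsf4 at a log2 difference of 0.61 ± 0.22, Penk at 0.68 ± 0.35 and Tox at 0.44 ± 0.28 (adjusted p = 0.99 for each).

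The difference of members from other cells depended on the sort for many genes. The interaction, which asks whether the log2 difference in the tetramer-positive libraries exceeds that in the tetramer-negative libraries, was positive for 357 of 10401 genes (3.43%) and negative for 395 (3.8%). Of 21 quiescence and stemness genes 16 were positive and 0 negative, and of 23 interferon-response genes 9 were positive and 0 negative. Of 12 genes of the inhibitory receptor list 9 were negative and 0 positive, and of 24 residency and homing genes 10 were negative and 0 positive. Of 15 effector and exhaustion factors 8 were negative and 2 positive. Of 13 exocrine genes 5 were positive.

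In several of these genes the values of other cells lay further apart between the sorts than those of members. Ccr7, a homing receptor for lymph nodes, stood at 335, 653, 332 and 641 CPM in members and at 485, 979, 105 and 216 CPM in other cells, an interaction of 2.25 ± 0.08 (adjusted p = 1.7e-17). In members its values were alike within a round, whereas in other cells it was lower in the tetramer-positive libraries. Lag3 stood at 278, 325, 281 and 491 CPM in members and at 164, 185, 324 and 486 CPM in other cells (-0.78 ± 0.09), and Cxcr6 at 242, 365, 282 and 397 CPM against 221, 255, 489 and 739 CPM (-1.12 ± 0.10). Tox stood at 261, 201, 303 and 297 CPM against 146, 115, 308 and 286 CPM (-0.73 ± 0.09). Among cells with a Pdcd1 UMI alone, which leaves out the naive-like cells and was an alternative chosen after seeing the data, 11 genes were positive and 3 negative, with Ccr7 at 1.20 (adjusted p = 1e-06) and Cxcr6 at -0.70 (0.0015), whereas Lef1, Tox and Lag3 did not pass. Without the tetramer-positive library of Round 2 177 genes were positive, and without the tetramer-negative library of Round 2 191 were negative.

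**Figure D4:**
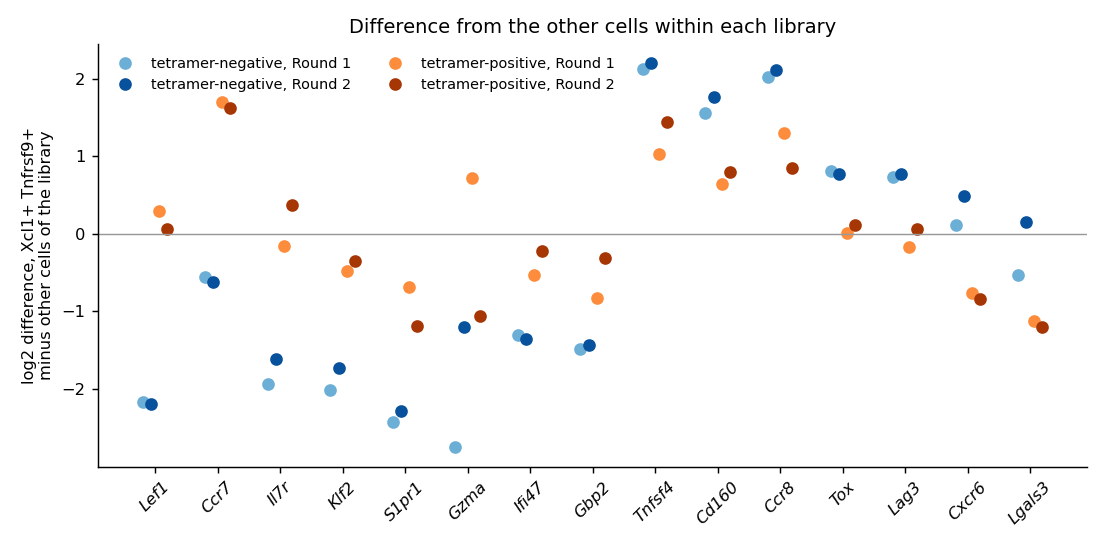
Log2 difference between Xcl1+ Tnfrsf9+ cells and the other cells of the same library (y axis) for 15 genes, with 1 point for each islet library and colour for the library. Lef1, Ccr7 and Il7r lie below 0 in the tetramer-negative libraries and near or above 0 in the tetramer-positive ones, while Tnfsf4, Cd160 and Ccr8 lie above 0 in all 4.

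The Xcl1+ Tnfrsf9+ cells were also split by UMIs of Tcf7 and Pdcd1. Tcf7 encodes TCF-1, which keeps T cells able to renew. After thinning, 8.59%, 8.61%, 7.69% and 11.7% of members had UMIs of both genes, 36.9%, 35.9%, 48.2% and 47.7% had Pdcd1 without Tcf7, 13.6%, 11.1%, 5.64% and 6.31% had Tcf7 without Pdcd1, and 41.0%, 44.4%, 38.5% and 34.2% had neither. At this depth a cell without a UMI may still express the gene, so these shares cannot show whether the members are a single state.

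A single productive α and a single productive β chain, which together define a clone by the nucleotide sequences of both CDR3 loops (a paired TCR), were recovered for 318, 478, 113 and 265 members. In the tetramer-negative libraries 85.5% and 80.1% of these members belonged to a clone of at least 2 cells, against 49.8% and 42.8% of other cells. In the tetramer-positive libraries nearly all cells did, with 97.3% and 98.5% of members and 98.4% and 98.9% of other cells. The difference was positive in 2 of 4 libraries (mean 17.9 percentage points, SD 21.5, n = 4; two-sided exact permutation p = 0.5), and among Pdcd1+ cells the mean was 4.82 percentage points. Clones also found in spleen of the same round held 15.4%, 5.23%, 87.6% and 94.0% of members and 10.99%, 3.22%, 95.2% and 95.6% of other cells (mean difference -0.688, SD 5.21; exact permutation p = 0.875). This mean was -2.59 with cells matched by UMIs and -4.23 among Pdcd1+ cells, where members were higher in 0 of 4 libraries (exact permutation p = 0.125). The spleen libraries held tetramer-positive cells only, and the tetramer-negative shares rest on few clones. In Round 1, clones with 1 spleen cell each held 19 and 26 of these 49 members. In Round 2, clones with 5 and 3 spleen cells held 15 and 8 of these 25 members. The α segment TRAV16N, which nearly all tetramer-positive cells use, was found in 20.4%, 9.83%, 100% and 100% of members and 12.4%, 12.01%, 99.5% and 99.6% of other cells (mean difference 1.71; exact permutation p = 0.625). In tetramer-negative Round 1 a single clone held 38 of the 65 members with TRAV16N. A paired TCR was recovered from 56.2%, 64.2%, 56.2% and 76.8% of members and 45.6%, 61.1%, 55.8% and 73.9% of other cells, higher in 4 of 4 libraries (mean difference 4.22; exact permutation p = 0.125, the smallest that 4 libraries allow).

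Members were spread over many clones. They fell into 150, 241, 29 and 41 clones, and the 5 clones with most members held 32.1%, 14.0%, 59.3% and 52.1% of the paired members. Of the 58 clones of at least 20 cells, 1, 3, 0 and 0 had no member, and the share of members in a clone ran from 0% to 42.2%, with library medians of 15.0%, 14.0%, 15.2% and 19.7%. A clone with 0 of 20 cells allows a share of up to 16.8% by its exact interval. Cells of a clone share a receptor and a pool, so they are not replicates.

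The TCR sequences of large clones are shown to let the receptors be set beside the share of members. For the 4 tetramer-positive clones P1-1, P1-2, P2-1 and P2-2, capitals mark the stretch between the start and the end that all 4 share. Bases within that stretch can still be alike between clones. All 4 use TRAV16N with TRAJ42, and the number after P gives the round. Clone P2-1 had 64 of 205 cells (31.2%; exact 95% interval 24.9 to 38.0) among the members, and P2-2, of the same library and with the same α CDR3, 28 of 193 cells (14.5%; 9.86 to 20.3). In Round 1, P1-1 had 21 of 116 cells (18.1%; 11.6 to 26.3) and P1-2 had 9 of 90 cells (10.0%; 4.68 to 18.1). The intervals, which cover counting error among cells only, did not overlap for P2-1 and P2-2 and did for P1-1 and P1-2. Both sequences of P1-1 were also found in Round 2, in clone P2-12. It had 10 of 31 cells (32.3%; 16.7 to 51.4) among the members. Among the 22 tetramer-positive clones of at least 20 cells there were 6 different α and 17 different β CDR3 nucleotide sequences, so clones with a shared α sequence could differ in their share of members.
P1-1 alpha: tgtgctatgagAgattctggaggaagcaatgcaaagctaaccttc
P1-2 alpha: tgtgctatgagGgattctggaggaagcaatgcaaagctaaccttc
P2-1 alpha: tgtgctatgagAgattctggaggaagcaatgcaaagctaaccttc
P2-2 alpha: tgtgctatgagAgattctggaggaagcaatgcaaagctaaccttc
P1-1 beta: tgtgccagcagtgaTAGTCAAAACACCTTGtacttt
P1-2 beta: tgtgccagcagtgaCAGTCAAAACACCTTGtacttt
P2-1 beta: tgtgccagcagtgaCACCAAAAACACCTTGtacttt
P2-2 beta: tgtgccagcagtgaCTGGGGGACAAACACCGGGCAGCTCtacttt

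In the tetramer-negative library of Round 1, where 10.6% of cells with a paired TCR were members, the largest and the second largest clone differed in their share of members. N1-1, with TRAV6N-7, TRAJ18 and TRBV16, had 19 of 232 cells (8.19%; exact 95% interval 5.00 to 12.5) among the members and 70 among the Tnfrsf9-only cells. N1-2, with TRAV16N, TRAJ49 and TRBV15, had 38 of 90 cells (42.2%; 31.9 to 53.1) among the members and 9 among the Tnfrsf9-only cells. Both clones came from the same pool and library. Their intervals, which cover counting error among cells only, did not overlap, while that of N1-1 included the share of the library. The third largest, N1-3, had 26 of 88 cells (29.5%; 20.3 to 40.2). The CDR3 sequences of N1-1 and N1-2 are printed in lower case throughout, to show that the clones of this library have unlike receptors.
N1-1 alpha: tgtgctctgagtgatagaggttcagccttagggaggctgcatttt
N1-1 beta: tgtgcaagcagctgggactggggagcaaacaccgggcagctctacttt
N1-2 alpha: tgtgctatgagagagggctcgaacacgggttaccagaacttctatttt
N1-2 beta: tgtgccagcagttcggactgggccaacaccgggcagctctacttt

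**Figure D5:**
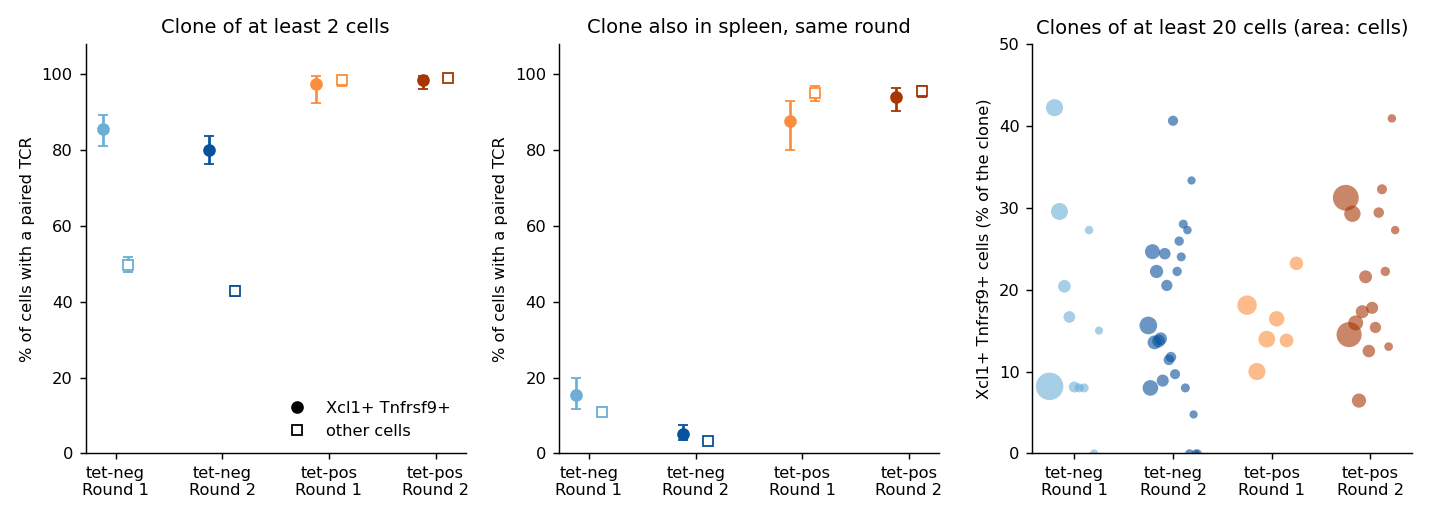
Percentage of cells with a paired TCR in a clone of at least 2 cells (left) and in a clone also found in spleen (middle), for Xcl1+ Tnfrsf9+ cells (filled circles) and other cells (open squares) with exact 95% intervals, and the percentage of members in each clone of at least 20 cells (right, area by number of cells). Members exceed other cells in expanded clones at 85.5% against 49.8% and 80.1% against 42.8% in the tetramer-negative libraries, and clones of 1 library spread from 0% to 42.2%.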

How the data were processed

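In all, 6 scRNA-seq and 6 scTCR-seq libraries were made from 10x 5′ captures of sorted CD8 T cells, and the 4 islet pairs were used here, with spleen for clone sharing and 1 share of cells. Deposited expression values are counts of UMIs for each gene in each cell. Cell Ranger was run by the authors on mm10, with no normalization and no pooling of libraries. The file headers name version 5.0.1. The deposited TCR files hold, per the file headers, a line for each assembled contig with its chain, segments and CDR3 (unit other: text and calls). Ambient RNA was not removed by the authors as far as stated, and none was removed here.

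The rule, the members and the gene lists were chosen with earlier results of these data known. No doublet caller was run. The upper limit on genes and an alternative without cells of more than 1 β chain stood in for it. Counts were summed per library and class of cells and tested with edgeR 4.0.16 (TMM, filterByExpr, quasi-likelihood test, Benjamini-Hochberg adjustment over all genes tested, threshold 0.05) in R 4.3.3 with limma 3.58.1. Comparisons of classes used the library as a block. Tetramer-positive against tetramer-negative members used no block, with the round as a block as the alternative. Rounds pair libraries because both sorts came from the same mouse pool. The deviations of same-round libraries from their sort's mean correlated at r = 0.619 over 9207 genes. The paper also gives different read cycles for the rounds, so mouse pool and sequencing cannot be told apart. The 6 genes of the rule and label were kept out of counts and tests. The test was checked on simulated data. Shares were compared by exact permutation tests over libraries, with exact Clopper-Pearson intervals at 95%, and cells were thinned to 2000 UMIs (Python 3.11.15, numpy 2.4.6, pandas 2.3.3, scipy 1.17.1, matplotlib 3.10.9). Total UMIs were 3511957, 4471882, 1245582 and 1871254 in members, so a level in the tetramer-positive libraries rests on fewer counts. CPM compares a gene between samples, not genes with each other. Groups that did not overlap are a description of the values, and the share of all tested genes without overlap was not counted.

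Genes were named by this rule: in each direction and comparison, the 10 largest log2 changes among genes past the threshold that moved alike in every library and reached a mean of 50 CPM in the group where they were higher, and for each list up to 4 genes with the largest change at 20 CPM or more, passed or not. Genes named beyond it are members of a list given by its count. Alternatives were DESeq2 1.42.0, its size factors in edgeR, no filter on low counts, other gates, Pdcd1+ cells, cells matched by UMIs, and leaving out each library. Each library is a pool of mice, and both sorts of a round came from the same pool. With the library as a block, p-values measure the spread of differences within libraries, which are not independent pools. Between sorts without a block, they measure the spread between libraries of a sort. Some genes that the rule names, and a marker behind the naive-like cells, are not reported here.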

Additional observations from a re-analysis of the deposited data

Results flagged for a closer look

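The following results were picked out because the difference between Xcl1+ Tnfrsf9+ cells and the other cells of their library was not the same in the tetramer-positive and the tetramer-negative sort. For genes this was tested as an interaction in edgeR's quasi-likelihood test with Benjamini-Hochberg adjustment, and the value is the log2 difference in tetramer-positive libraries minus that in tetramer-negative libraries. Positive values were found for the genes of resting and circulating T cells Lef1 (2.35), Ccr7 (2.25), Il7r (1.99), Klf3 (1.86), Klf2 (1.47) and S1pr1 (1.37), and for Plaur (2.04), Gzma (1.65), Klhdc2 (1.46) and Dusp10 (1.40). Gzma stood at 27.6 and 103 CPM in tetramer-negative members against 183 and 231 CPM in other cells, and at 64.2 and 18.2 CPM in tetramer-positive members against 39.9 and 39.6 CPM, so the 2 tetramer-positive libraries disagreed in direction. Plaur, the gene of the urokinase receptor, stood at 106, 158, 44.2 and 126 CPM in members against 204, 315, 36.5 and 51.6 CPM in other cells.

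Negative values were found for Cxcr6 (-1.12), Cd7 (-1.01), Lgals3 (-1.04), Osbpl3 (-1.06), Pkp3 (-0.99) and Tcrg-C4 (-1.03). They were also found for the genes of dividing cells Rrm2 (-1.52), Hist1h2ap (-1.14), Pclaf (-1.06) and Hist1h1b (-0.95), which the Mki67 limit of the rule holds low in members. Cd7 stood at 480, 536, 452 and 657 CPM in members against 368, 382, 790 and 943 CPM in other cells. Tcrg-C4 is a γ-chain constant gene, and its reads can be shared with near-identical copies, so its value is uncertain. Of the genes above, Ccr7, Gzma, Cxcr6 and Cd7 passed also among Pdcd1+ cells alone, an alternative chosen after seeing the data.

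In clones, the share of cells in a clone of at least 2 cells was higher in members than in other cells of both tetramer-negative libraries and slightly lower in both tetramer-positive ones. The differences of the sorts lay -37.3 percentage points apart (tetramer-positive minus tetramer-negative). In the tetramer-positive libraries the share was near its ceiling, at 97.3% and 98.5% of members against 98.4% and 98.9% of other cells, with overlapping exact intervals. Among Pdcd1+ cells the mean difference over the 4 libraries was 4.82 percentage points. The share of cells in a clone also found in spleen had the same signs by sort among all kept cells, at -7.80 percentage points. Among Pdcd1+ cells it was higher in members in 0 of 4 libraries (mean difference -4.23). Spleen cells were tetramer-positive only, and the tetramer-negative shares rest on few clones. Neither difference between sorts was tested, since the exact permutation test of 2 libraries against 2 cannot give a two-sided p below 0.333.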

How the results depend on the processing

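Most calls between classes of cells were lost without the library block. Without it, the counts higher and lower in members were 2 and 1 against other cells, 0 and 22 against Nr4a1-high cells, 9 and 10 against Tnfrsf9-only cells, and 0 and 0 for the interaction. Between the sorts of members, the round block gave 4 and 35 in place of 0 and 2. DESeq2 called 523 and 444 against other cells, 48 and 101 against Nr4a1-high cells, 294 and 261 against Tnfrsf9-only cells, 2 and 16 between sorts, and 165 and 127 for the interaction. Without the filter on low counts there were 1410 genes lower than in other cells, 236 higher than in Nr4a1-high cells, and 15 and 65 between sorts. Members matched by UMIs to Nr4a1-high cells gave 33 and 133, and a gate of at least 2 UMIs of Xcl1 and of Tnfrsf9 gave 1 gene higher between sorts. Leaving out each library gave 273 to 956 genes higher and 310 to 1050 lower than in other cells, 72 to 144 and 131 to 226 against Nr4a1-high cells, 432 to 825 and 389 to 789 against Tnfrsf9-only cells, 0 to 17 and 2 to 30 between sorts, and 177 to 392 and 191 to 394 for the interaction. Limiting the interaction to Pdcd1+ cells, which like its leave-one-out fits was chosen after seeing the data, gave 11 and 3. A lone library of a sort was then assumed to vary like the others. The cause of these changes was not tested.

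The difference in member share between sorts was 8.05 percentage points after thinning, 5.48 with the gate of at least 2, 4.92 among Pdcd1+ cells and 7.89 to 13.2 with a round left out; it was 10.6 with the round as a block. The recovery of paired TCRs turned to -0.456 percentage points for cells matched by UMIs and -0.0268 among Pdcd1+ cells. The difference for clones in spleen was -2.59 for cells matched by UMIs and -4.23 among Pdcd1+ cells. Leaving out libraries gave -2.39 to 1.61 for it, turning to 1.61 without tetramer-positive Round 1, and -0.403 to 3.01 for TRAV16N, turning to -0.403 without tetramer-negative Round 1; it gave 11.4 to 24.2 for expanded clones and 2.11 to 5.50 for paired TCRs. For the named genes the direction turned once, in the interaction of Gbp2 among Pdcd1+ cells (-0.0552), where 22 of 27 named genes also lost their call. Against other cells 829 values kept their side of the threshold and 81 lost it, 64 of these without the block, where Gzmb alone passed. Low cell numbers in the tetramer-positive libraries, with 201 and 345 members, limit the comparison between sorts.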

Other observations

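Genes of hormone-producing islet cells were also found. Ins1 and Ins2, the insulin genes and the 2 of 9 endocrine-list genes that could be tested, were both higher in members than in other cells of their library, with a median log2 change of 1.69. The whole list summed to between 5.62 and 31.5 CPM in members and to between 5.61 and 176 CPM in other cells, so the summed level was not higher throughout. Among the natural killer and innate lymphoid genes Fcer1g was higher and Tyrobp lower, and none of 3 B-cell genes tested passed. Chaperones were split by kind, with 10 of 27 higher, among them Hspa9, Hspd1 and Cct3, and 4 lower, which were the heat-inducible genes Hspa1a, Hspa1b, Dnajb1 and Hsph1. Other cells include cells over the Nr4a1 limit of the rule. Of the 27, 0 were higher and 3 lower against Nr4a1-high cells, and 11 higher and 1 lower against Tnfrsf9-only cells, which meet that limit. The survival list was mixed, with 5 of 20 higher, among them Bcl2a1d, Bcl2l1 and Fas, and 7 lower, among them Bcl2, Bbc3 and Mcl1.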
